A study of Mus musculus with 48 samples.

Results

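The data compared here were the 24 arrays of postnatal day 5 (P5), out of 48 in the series, read as an interaction: the IL1B response of O4+ cells (IL1B minus PBS) minus the IL1B response of CD11B+ cells. All 4 groups held 6 arrays, and every non-control probe of the Agilent whole mouse genome 8x60K array entered the comparison. The pups were male swiss mice. They received intraperitoneal PBS or interleukin 1B (IL1B) at 10 ng/g 2 times a day from day 1 to day 4 and once on day 5, and were killed 2 h after the last injection, per the labels. The O4+ fraction was magnetically sorted from the dissociated brain first, and the CD11B+ fraction was then taken from what the O4 beads had left, so both fractions came from the same tissue. The study's methods state that several brains were pooled per sample and name a different mouse stock and a longer interval after the last injection than the labels do. Nothing in the labels ties a pool to an array number, so the p-values measure the spread between these samples. O4 marks late progenitors and immature oligodendrocytes, and CD11B (Itgam) marks microglia and other myeloid cells.

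IL1B binds the receptor Il1r1 with its partner Il1rap and signals through Myd88 to NF-kappaB, which induces cytokines, chemokines and its own inhibitors. Secondary signals such as IL6 family cytokines act through STAT3. Microglia are the resident macrophages of the brain and are well known to respond in this way, whereas oligodendrocyte progenitors are known to have their maturation slowed by systemic inflammation.

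Each fraction carried the markers of its label, and the O4+ fraction carried microglia markers too. The mean log2 signal of 12 oligodendrocyte lineage genes lay between 13.09 and 13.63 on the O4+ arrays and between 7.78 and 8.80 on the CD11B+ arrays. The mean of 16 microglia genes lay between 15.69 and 16.02 on the CD11B+ arrays. On the O4+ arrays those microglia genes lay between 12.80 and 13.40 with PBS and between 14.03 and 14.48 with IL1B, so that the O4+ groups did not overlap. All 16 were well above background on every O4+ array. The mean of 14 neutrophil and monocyte genes lay between 4.00 and 4.58 with PBS and between 5.84 and 8.74 with IL1B in O4+ cells, and between 9.35 and 10.22 and between 12.53 and 13.26 in CD11B+ cells. In such bulk samples fewer cells of a type and less RNA per cell cannot be told apart. A pair of CD11B+ arrays stood apart from their groups: PBS replicate 5, where 9 astrocyte genes averaged 11.08 against a group median of 8.88, and IL1B replicate 3. Between 53.7% and 65.4% of probes were well above background per array. The slides did not hold the groups evenly. Slide 3 held 4 O4+ IL1B and 4 CD11B+ PBS arrays, and slide 4 was the only one with all 4 groups (8 arrays), so values within slide 4 and with the slide as a block are given beside the classes.

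Both cell types responded strongly, and in partly different ways. The interaction passed (adjusted p under 0.05, limma with Benjamini-Hochberg adjustment over 55681 probes) for 3835 probes with the more positive response in O4+ cells (6.89% of those tested) and for 2098 with the more positive response in CD11B+ cells (3.77%). Within a cell type a call needed an adjusted p below 0.05 together with group medians more than 1.5-fold apart. O4+ cells had 1863 higher calls under IL1B (3.35%) and 601 lower calls (1.08%). CD11B+ cells had 2617 higher calls (4.7%) and 3549 lower calls (6.37%). That CD11B+ split turned with the scaling: with each array scaled to its 75th percentile, 3331 were higher and 2789 lower. Across the 28365 probes measured in both cell types, the changes correlated with r = 0.624 (Pearson, across probes that share arrays and are not independent replicates). With the slide as a fixed block, the interaction passed for 1434 and 784 probes.

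Probes were then sorted into classes. Shared rises and falls were called the same way in both cell types. A biased response was called in the cell type that names it, passed the interaction and differed by over 1.5-fold between the cell types. The classes held 849 shared rises, 801 O4+-biased rises, 866 CD11B+-biased rises, 300 shared falls, 79 O4+-biased falls and 998 CD11B+-biased falls. A probe can be shared and biased: 180 shared rises were also O4+-biased and 97 also CD11B+-biased. Since these classes are cut from the same fit, their changes describe them and are not a further test.

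**Figure D1:**
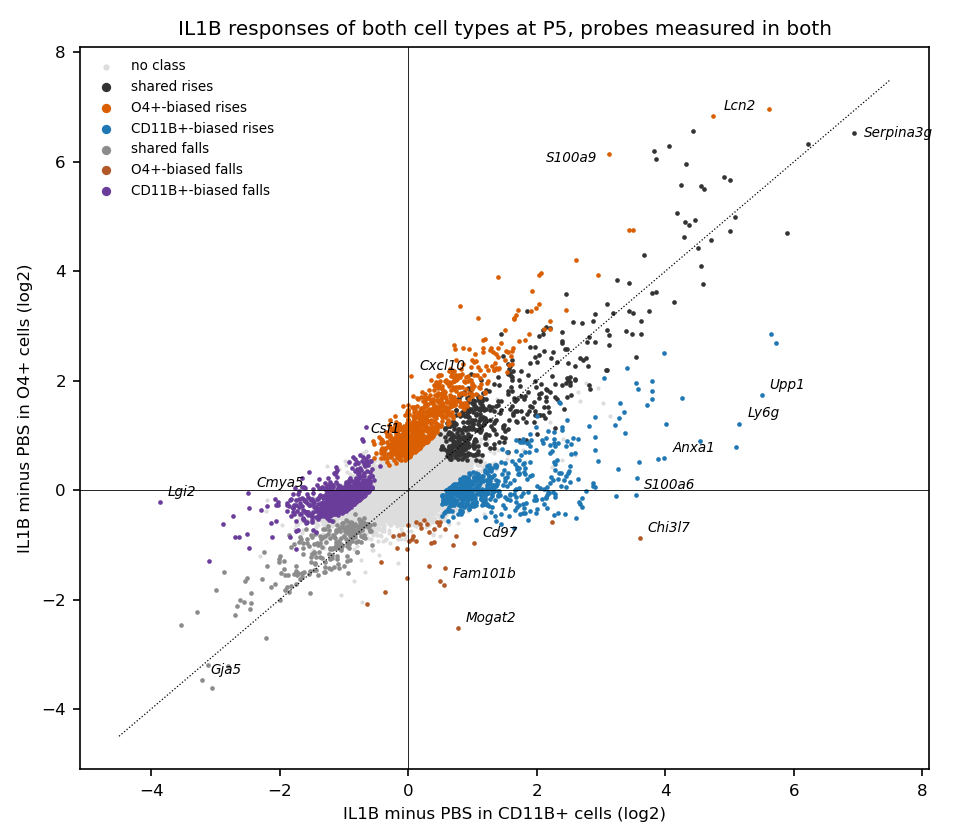
Each point is a probe measured in both cell types (28365), with its IL1B minus PBS difference in CD11B+ cells on the x axis and in O4+ cells on the y axis, both in log2 units, and the dotted line marks equal responses. Colours give the class (a probe in a shared and a biased class takes the biased colour). Serpina3g lies near the line, Lcn2 and S100a9 above it, and Chi3l7, Upp1, Ly6g and Anxa1 far below it.

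Promoters of 4 induced genes are shown, picked because they hold matches to the motifs named below: 2 of the serpin cluster, induced in both cell types, and 2 chemokines with the larger rise in O4+ cells. They are the 250 bases before the first listed start of each gene, from RefSeq on GRCm38.p6, 5′ to 3′ on the gene's strand. Capitals mark matches on either strand to an interferon-response-like GAAANNGAA, the STAT motif TTCNNNGAA, a glucocorticoid-response-like ACANNNTGT or the NF-kappaB consensus; matches that overlap run together.
Serpina3f, chr12:104214294-104214543 (+ strand): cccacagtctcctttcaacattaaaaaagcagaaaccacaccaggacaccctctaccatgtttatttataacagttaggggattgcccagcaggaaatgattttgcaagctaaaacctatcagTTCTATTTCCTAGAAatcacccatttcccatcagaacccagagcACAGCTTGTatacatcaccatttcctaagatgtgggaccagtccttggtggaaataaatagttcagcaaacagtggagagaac
Serpina3i, chr12:104262872-104263121 (+ strand): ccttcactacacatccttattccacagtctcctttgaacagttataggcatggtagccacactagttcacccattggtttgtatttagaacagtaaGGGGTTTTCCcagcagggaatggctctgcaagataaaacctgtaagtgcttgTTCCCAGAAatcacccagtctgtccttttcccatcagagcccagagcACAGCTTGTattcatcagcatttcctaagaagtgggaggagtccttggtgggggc
Cxcl10, chr5:92348890-92349139 (- strand): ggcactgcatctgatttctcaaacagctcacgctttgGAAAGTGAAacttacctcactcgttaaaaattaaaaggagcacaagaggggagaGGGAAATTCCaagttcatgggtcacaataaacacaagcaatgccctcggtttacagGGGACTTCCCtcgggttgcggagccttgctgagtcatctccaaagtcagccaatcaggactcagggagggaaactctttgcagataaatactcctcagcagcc
Cxcl1, chr5:90890995-90891244 (+ strand): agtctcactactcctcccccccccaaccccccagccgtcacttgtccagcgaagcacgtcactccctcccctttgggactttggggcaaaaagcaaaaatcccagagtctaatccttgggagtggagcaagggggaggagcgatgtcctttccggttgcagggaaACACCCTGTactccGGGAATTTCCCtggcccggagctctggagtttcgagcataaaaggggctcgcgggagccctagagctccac
Cxcl10 held 1 interferon-response-like and 2 NF-kappaB matches, and the NF-kappaB match of Cxcl1 read on both strands. Cxcl1 also held a glucocorticoid-response-like match. Serpina3f and Serpina3i each held 1 STAT match and 1 glucocorticoid-response-like match, and Serpina3f also an interferon-response-like match that overlaps its STAT match and Serpina3i an NF-kappaB match. Other induced genes, such as S100a9 and Stfa3, held no match in the same window. Of 27025 mouse promoters of this length, 7.16% held GAAANNGAA, 7.18% TTCNNNGAA, 5.91% ACANNNTGT and 3.75% the NF-kappaB consensus. GAAANNGAA was found in 17.9% of 391 shared-rise promoters, 12.3% of 439 O4+-biased and 7.73% of 388 CD11B+-biased. TTCNNNGAA was found in 12.5%, 7.29% and 7.99%, ACANNNTGT in 8.18%, 5.92% and 5.67%, and the NF-kappaB consensus in 6.14%, 7.74% and 5.41%. These shares describe letters in a window; binding was not measured.

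The shared rises were led by protease inhibitors. Values are given below as the lowest, the median and the highest normalized log2 signal of the 6 arrays of a group. Serpina3g, a serine protease inhibitor (probe at chr12:105480045-105480104, mm9), gave 5.42, 5.99 and 6.42 with PBS and 11.79, 12.11 and 13.69 with IL1B in O4+ cells. CD11B+ cells gave Serpina3g 5.97, 6.43 and 7.62 with PBS and 12.93, 13.46 and 14.24 with IL1B. The groups were far apart in both cell types. The rises were 6.53 ± 0.34 and 6.93 ± 0.34 (log2 ± SE), and the interaction of −0.40 (95% interval −1.38 to 0.59, adjusted p = 0.69) did not pass. Serpina3i rose by 5.00 and 5.08 with an interaction of −0.08 (−0.74 to 0.58), though its second probe gave 1.11. These serpins lie side by side and are near-identical, so probes may read more than 1 of them. Stfa3, a cathepsin inhibitor of a different multigene family, rose by 5.56 ± 0.53 and 4.55 ± 0.53, with 2 of 6 O4+ PBS arrays well above background.

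Lcn2, which binds bacterial siderophores, was a shared rise that was larger in O4+ cells. O4+ cells gave Lcn2 5.75, 5.96 and 6.53 with PBS and 11.99, 12.98 and 13.55 with IL1B, and CD11B+ cells 9.40, 9.76 and 10.64 and then 14.08, 14.72 and 14.77. The IL1B arrays were clear of the PBS arrays in each, and the O4+ level with IL1B stayed under the CD11B+ level. Its rise was 6.83 ± 0.23 in O4+ and 4.75 ± 0.23 in CD11B+ cells (interaction 2.08 ± 0.33, adjusted p = 0.00013, and 1.64 with adjusted p = 0.11 with the slide as a block). Serpina3f rose by 6.96 and 5.61 (interaction 1.35 ± 0.32, adjusted p = 0.0071), a difference that no longer passed with the slide as a block (0.99), with quantile normalization within each cell type (0.70) or with 75th percentile scaling (0.65).

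Over the 725 measured shared rises the median change was 1.53 in O4+ and 1.12 in CD11B+ cells, beside −0.06 and −0.05 over all measured probes. Of the 849, 203 passed the interaction towards O4+ and 100 towards CD11B+. The 95% interval of the interaction lay within 1.5-fold either way for 104, and for 445 it neither passed nor lay within that range, so that equal responses were not shown for them. The interferon-inducible GTPases, which act on intracellular pathogens, were mostly of this kind: 15 of 17 were called higher in each cell type (medians 1.85 and 1.62). Of these 17, 5 rose more in O4+ cells, led by Igtp (3.30 against 1.71) and Ifi47 (3.40 against 2.03), and none did so with the slide as a block.

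O4+-biased rises were almost wholly genes that CD11B+ cells already expressed at a higher level without IL1B. Of the 760 measured, 750 (98.7%) were at least 2-fold higher in CD11B+ PBS than in O4+ PBS arrays, beside 20.4% of all measured probes. Their median change was 1.2 in O4+ and 0.21 in CD11B+ cells. The median gap between the cell types was −3.40 with PBS (O4+ minus CD11B+, log2) and −2.40 with IL1B, and 12 of the 760 were above 0 with IL1B. The mean of the microglia genes was higher on the same O4+ IL1B arrays, as given above, and its part in these rises was not tested. Within slide 4, 759 of 760 had the same sign (median interaction 1.35), and 544 of the 801 passed with the slide as a block.

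**Figure D2:**
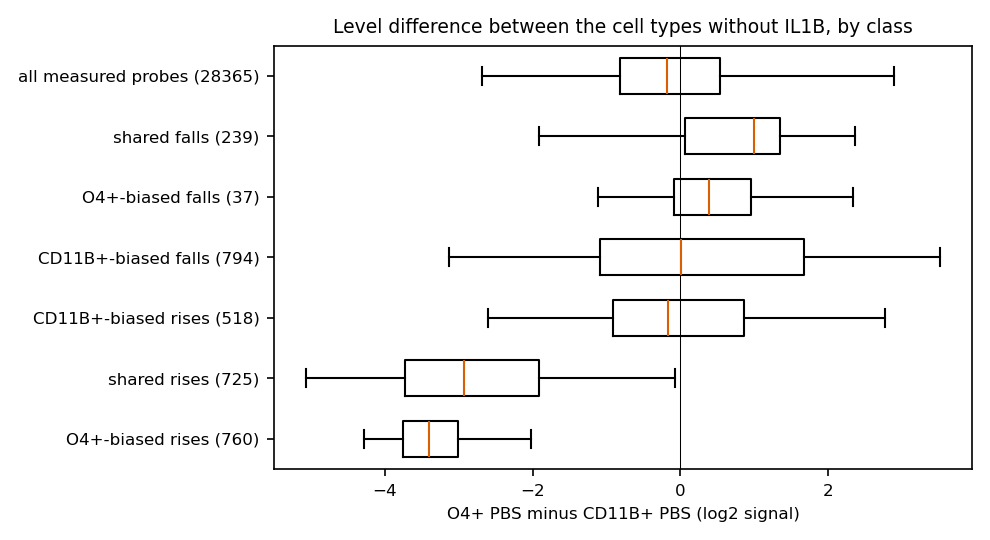
Boxes give, for the measured probes of each class (number in brackets), the O4+ PBS minus CD11B+ PBS difference in log2 signal: the line is the median, the box the middle quartiles and the whiskers the 5th and 95th percentiles. The O4+-biased rises (median −3.40) and shared rises (median −2.94) sit far to the CD11B+ side, and the CD11B+-biased rises (median −0.17) sit near 0 with all measured probes (median −0.18).

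S100a9, a calprotectin subunit abundant in neutrophils, was an O4+-biased rise. O4+ cells gave S100a9 5.63, 6.44 and 7.51 with PBS and 9.81, 13.34 and 14.51 with IL1B, a wide spread, and CD11B+ cells 14.12, 14.64 and 15.23 and then 17.54, 17.72 and 18. Its interaction of 3.03 ± 0.82 (adjusted p = 0.017) did not pass with the slide as a block (2.69, adjusted p = 0.37).

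Cxcl10, a ligand of the receptor Cxcr3 (probe at chr5:92775781-92775840, mm9), changed in 1 cell type. O4+ cells gave Cxcl10 10.75, 11.45 and 11.52 with PBS and 12.76, 13.11 and 14.43 with IL1B, with no overlap. CD11B+ cells gave Cxcl10 14.37, 14.60 and 14.80 with PBS and 14.24, 14.63 and 14.91 with IL1B, a full overlap at a higher level. The interaction of 2.04 ± 0.30 (adjusted p = 6.1e-05) was 1.49 with the slide as a block (adjusted p = 0.13). Niacr1 (Hcar2), the receptor of niacin and hydroxybutyrate, rose by 3.96 ± 0.18 and 2.06 ± 0.18 (interaction 1.90 ± 0.25, adjusted p = 1.6e-05). Its second probe gave a smaller interaction of 0.83, which also passed. Of the measured members, 10 were not higher by 2-fold in CD11B+ PBS arrays; they were looked up after the values were seen and include Serpina3b, Rgs12, Serpina3h, S1pr2, Serpina3f, Adm, Vgf, Sez6l2 and Rasl11a. Among them Rasl11a, a small GTPase, changed by 0.93 in O4+ and −0.29 in CD11B+ cells, and Adm, the vasodilator adrenomedullin, by 0.74 and −0.36. With the slide as a block, only S1pr2 of the 10 passed the interaction (0.84, adjusted p = 0.0054). Rasl11a (1.41, adjusted p = 0.16) and Adm (0.82, adjusted p = 0.20) did not.

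**Figure D3:**
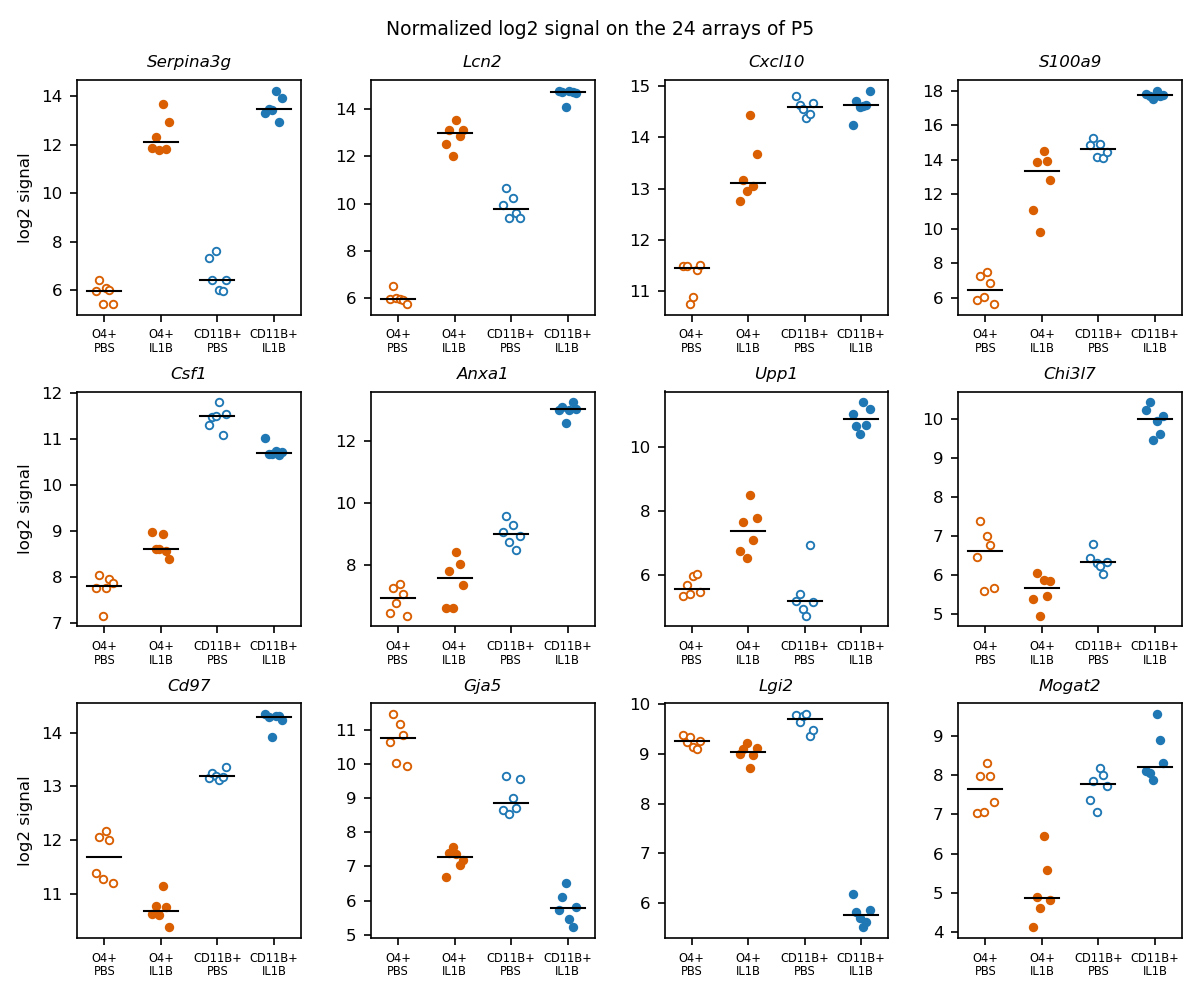
Normalized log2 signal (y axes, which differ between panels and do not start at 0) of 12 genes on the 24 arrays, 6 points per group with open points for PBS, filled points for IL1B and a line at the group median. Cxcl10 rises in O4+ cells to below the level CD11B+ cells hold throughout, Upp1, Chi3l7 and Anxa1 rise far more in CD11B+ cells, and Csf1 and Cd97 move in opposite directions.

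The measured CD11B+-biased rises stood near all measured probes in their level without IL1B. Of the 518 measured, 22.8% were at least 2-fold higher in CD11B+ PBS arrays and 22.2% at least 2-fold higher in O4+ PBS arrays, beside 20.4% and 16.5% of all measured probes. Members of the 866 without enough signal in O4+ cells to count as measured are left out of these shares. Of the 64 measured members also called higher in O4+ cells, 62.5% were at least 2-fold higher in CD11B+ PBS arrays. Over the 518 the medians were 0.02 in O4+ and 1.19 in CD11B+ cells, and 762 of the 866 were not called either way in O4+ cells. Chi3l7, a chitinase-like gene (probe at chr3:105819901-105819960, mm9), rose in CD11B+ cells. O4+ cells gave Chi3l7 5.6, 6.61 and 7.38 with PBS and 4.96, 5.66 and 6.05 with IL1B, and CD11B+ cells 6.04, 6.33 and 6.80 and then 9.46, 10.00 and 10.43. Only the CD11B+ groups were free of overlap, although the O4+ change of −0.88 ± 0.26 was also called. The interaction was −4.48 ± 0.37 (adjusted p = 6.1e-08).

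Upp1, which splits uridine (probe at chr11:9036114-9036173, mm9), gave 5.34, 5.57 and 6.01 with PBS and 6.54, 7.37 and 8.48 with IL1B in O4+ cells, and 4.72, 5.18 and 6.94 and then 10.39, 10.85 and 11.39 in CD11B+ cells. It rose in both, by 1.73 ± 0.33 and 5.5 ± 0.33 (interaction −3.76 ± 0.47, adjusted p = 7.1e-06), but its second probe, not measured in both cell types, gave 0.10. Anxa1, an annexin that glucocorticoids induce in leukocytes, gave 6.37, 6.93 and 7.41 and then 6.61, 7.59 and 8.44 in O4+ cells, which overlap. CD11B+ cells gave Anxa1 8.49, 9.01 and 9.61 with PBS and 12.60, 13.04 and 13.27 with IL1B, with an interaction of −3.39 ± 0.39 (adjusted p = 2.7e-06) and −3.31 by its second probe. S100a6, a calcium-binding protein, differed by −0.09 and 3.54 in the cell types (interaction −3.63 ± 0.78, adjusted p = 0.0028), and its O4+ PBS arrays spread from 11 to 14.42. Ly6g, a surface protein of neutrophils, rose by 1.21 ± 0.31 and 5.15 ± 0.31 (interaction −3.93 ± 0.43, adjusted p = 1.7e-06), with 3 of 6 arrays well above background in each PBS group. The 13 other neutrophil and monocyte genes were also called higher in CD11B+ cells, and 13 of the 14 were called higher in O4+ cells; of the 14, the interaction passed for S100a9 towards O4+ and for Ly6g towards CD11B+. Within slide 4, whose arrays also set the class, 516 of the 518 CD11B+-biased rises had the same sign (median −1.14). With the slide as a block, 464 of 866 passed.

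In the IL1 pathway the ligands Il1b and Il1a rose more in O4+ cells, and the receptor partners Il1rap and Il18rap, the decoy receptor Il1r2 and the antagonist Il1rn more in CD11B+ cells. The probes of Il18rap and Il1rn were not measured in both cell types, so the sizes of their differences are uncertain. Of 20 genes, 12 were called higher in O4+ cells and 11 in CD11B+ cells. The interaction passed for 8 towards O4+ and 4 towards CD11B+ (5 and 1 with the slide as a block). The median interaction of the 20 was 0.32, beside 0.03 over all measured probes. Il1b itself gave 9.64, 10.31 and 10.62 with PBS and 12.58, 12.74 and 13.05 with IL1B in O4+ cells, and 13.90, 13.98 and 14.10 and then 14.58, 14.65 and 14.89 in CD11B+ cells. It rose by 2.58 and 0.72 without overlap in either (interaction 1.85 ± 0.19, adjusted p = 7.2e-07) and was 1.91 at P10 (adjusted p = 0.0027). Casp4, an inflammatory caspase, rose by 2.59 and 1.17. Il1rap ran the other way. O4+ cells gave Il1rap 7.61, 7.87 and 8.05 with PBS and 7.18, 7.75 and 7.84 with IL1B, while CD11B+ cells rose from 5.65, 5.97 and 6.59 to 6.78, 7.5 and 7.75 (interaction −1.53 ± 0.24, adjusted p = 0.00013, and −1.19 with adjusted p = 0.10 with the slide as a block). The decoy receptor Il1r2 rose by 2.51 and 3.98 (interaction −1.47 ± 0.46, adjusted p = 0.044), with 2 of 6 O4+ PBS arrays well above background. Il1r1, the signalling receptor, rose by 1.27 and 0.69, and its interaction of 0.57 ± 0.27 (adjusted p = 0.21) did not pass.

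NF-kappaB subunits and inhibitors divided in the same direction. Of 20 genes, 10 passed towards O4+ and 3 towards CD11B+ (median interaction 0.55), and 9 passed towards O4+ with the slide as a block. Zc3h12a, an RNase that degrades cytokine mRNAs, rose by 3.20 and 1.68, and Bcl3, a nuclear partner of NF-kappaB, by 3.15 and 1.64. Tnfaip3, the deubiquitinase that ends NF-kappaB signalling, gave 11.65, 12.12 and 12.19 with PBS and 12.84, 13.04 and 13.24 with IL1B in O4+ cells, and 14.81, 14.92 and 15.15 and then 14.34, 14.68 and 14.84 in CD11B+ cells. It rose by 1.00 ± 0.10 in O4+ cells only (interaction 1.28 ± 0.14, adjusted p = 1.5e-06). Of the 20 genes, 15 were at least 2-fold higher in CD11B+ than O4+ PBS arrays.

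Chemokines split by gene. Among 19 CC chemokines and receptors, 8 passed towards O4+ and 1 towards CD11B+ (5 and 1 with the slide as a block). Among 16 CXC genes 7 and 2 passed (3 and 2 with that block). Ccl12, which recruits monocytes, rose by 3.93 and 2.03 (interaction 1.90 ± 0.14, adjusted p = 6.0e-09), and Ccl4 by 1.36 in O4+ cells with −0.21 in CD11B+ cells. Cxcl1, a neutrophil attractant, gave 9.11, 9.54 and 10.22 with PBS and 10.10, 10.72 and 11.32 with IL1B in O4+ cells, and 13.24, 13.68 and 13.84 and then 12.72, 12.96 and 13.19 in CD11B+ cells. It rose in O4+ cells by 1.16, where the groups overlap, and fell in CD11B+ cells by 0.66, where they do not (interaction 1.82 ± 0.25, adjusted p = 3.3e-05, and 1.76 at P10). Ccl17, a ligand of Ccr4 on T cells, was the exception among the CC genes. O4+ cells gave Ccl17 7.12, 7.42 and 7.55 with PBS and 7.49, 7.62 and 7.74 with IL1B, whereas CD11B+ cells went from 4.52, 5.17 and 5.64 to 8.21, 8.52 and 9.18. The O4+ level was the higher with PBS and the CD11B+ level with IL1B (interaction −3.33 ± 0.24, adjusted p = 9.6e-09, and −3.45 with the slide as a block), but the difference did not pass at P10 (−0.55, adjusted p = 0.41).

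Complement and Toll-like receptor genes passed more often towards O4+ than towards CD11B+. Of 19 complement genes, 9 passed towards O4+ and 3 (Cd55, C3 and Cfp) towards CD11B+. C1qa, of the complex that starts the classical pathway, gave 12.78, 13.35 and 13.55 with PBS and 14.73, 14.99 and 15.19 with IL1B in O4+ cells, and 16.23, 16.28 and 16.42 and then 16.28, 16.39 and 16.47 in CD11B+ cells. Its interaction of 1.63 ± 0.14 (adjusted p = 6.5e-08) came from the O4+ side, and C1qb and C1qc gave 1.51 and 1.58. C1qa, C1qb and C1qc are also members of the microglia list. The mean of that list was 13.21 with PBS and 14.26 with IL1B on the O4+ arrays, and its part in the complement rises was not tested. Cd55, which protects cells from complement, gave 7.36, 7.67 and 8.14 and then 7.39, 7.70 and 8.30 in O4+ cells. CD11B+ cells raised Cd55 from 6.71, 6.89 and 7.62 to 9.45, 9.93 and 10.15 (interaction −2.80 ± 0.24, adjusted p = 8.0e-08, and −1.44 with adjusted p = 0.0056 at P10). C3, the central component, rose by 1.06 and 2.27 (interaction −1.21 ± 0.15, adjusted p = 5.8e-06), though its second probe gave 0.11. Of 18 Toll-like receptor genes, 10 passed towards O4+ and 2, Nod1 (−0.88) and Nod2 (−0.54), towards CD11B+. The lipopolysaccharide co-receptor Cd14 rose by 2.58 and 0.95, and Tlr2, which binds lipopeptides, by 1.67 in O4+ cells with 0.16 in CD11B+ cells.

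Receptors of the IL6 family parted. Il6ra gave 11.63, 12.05 and 12.17 with PBS and 13.15, 13.39 and 13.60 with IL1B in O4+ cells, and 15.10, 15.24 and 15.27 and then 15.01, 15.17 and 15.30 in CD11B+ cells (interaction 1.44 ± 0.12, adjusted p = 5.3e-08). Lifr, the receptor of leukaemia inhibitory factor, rose more in CD11B+ cells: 10.64, 10.68 and 10.83 and then 10.85, 10.93 and 11.08 in O4+ cells, and 9.52, 9.60 and 9.67 and then 10.88, 11.11 and 11.29 in CD11B+ cells. Lifr was without overlap of IL1B and PBS arrays in both cell types. Its interaction was −1.27 ± 0.09 (adjusted p = 4.2e-09), from −1.34 to −1.27 over 3 probes, and the difference did not pass at P10 (0.40, adjusted p = 0.084). The feedback inhibitor Socs3 rose by 2.29 and 1.57, and the transcription factor Cebpb by 2.34 and 1.02. Of the 22 genes of the list, 9 passed towards O4+ and 4 towards CD11B+ (5 and 2 with the slide as a block).

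Acute-phase genes changed strongly in both cell types. Of 22 genes, 15 were called higher in O4+ and 17 in CD11B+ cells, and the interaction passed for 6 towards O4+ and 7 towards CD11B+ (medians 1.57 and 3.29). With the slide as a block these counts were 0 and 6. Lrg1, a glycoprotein of acute inflammation, gave 4.09, 4.35 and 5.20 with PBS and 6.26, 7.25 and 7.88 with IL1B in O4+ cells, and 6.47, 6.73 and 7.98 and then 12.03, 12.91 and 13.13 in CD11B+ cells (interaction −3.03 ± 0.44, adjusted p = 5.3e-05). Orm1, an orosomucoid, was well above background on the 6 CD11B+ IL1B arrays only. There it was at least 30.7-fold higher than with PBS, taking the PBS level as the lowest signal above background on each array (adjusted p of the CD11B+ change 3.9e-13). Of 22 type I interferon antiviral genes, 1 passed towards O4+ and 5 towards CD11B+ (0 and 2 with the slide as a block), among them Cmpk2 (0.00 and 1.06) and Ifit2 (0.20 and 1.02).

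Of 17 MHC class I and immunoproteasome genes, 11 were called higher in O4+ cells and 6 in CD11B+ cells, and 6 were shared rises. Of these 17, 5 passed towards O4+ (1 with the slide as a block) and none towards CD11B+, led by the light chain B2m (1.25 against 0.13, interaction 1.12 ± 0.12, adjusted p = 1.7e-06). Of 10 MHC class II genes, 3 passed each way (2 towards O4+ and 0 towards CD11B+ with the slide as a block). Cd74, the invariant chain, rose by 3.28 and 1.91, whereas H2-Ab1, a class II chain, rose by 0.93 and 2.27 (interaction −1.34 ± 0.35, adjusted p = 0.013). Glucocorticoid-response genes were called higher in 15 of 19 cases in O4+ and in 11 in CD11B+ cells, and 10 passed towards O4+ and 3 towards CD11B+ (2 and 3 with the slide as a block). Per1, a clock gene, rose by 2.13 and 0.68 (interaction 1.45 ± 0.11, adjusted p = 2.3e-08), and Klf9, a transcription factor, by 0.95 and 2.56 (−1.61 ± 0.24, adjusted p = 5.3e-05). Slc2a3, a glucose transporter, gave 10.92, 11.06 and 11.26 and then 10.65, 10.92 and 10.99 in O4+ cells, and went from 9.55, 9.64 and 9.72 to 11.15, 11.69 and 11.87 in CD11B+ cells. Its interaction of −2.18 ± 0.13 (adjusted p = 1.8e-10) was 0.31 at P10 and did not pass there (adjusted p = 0.30).

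**Figure D4:**
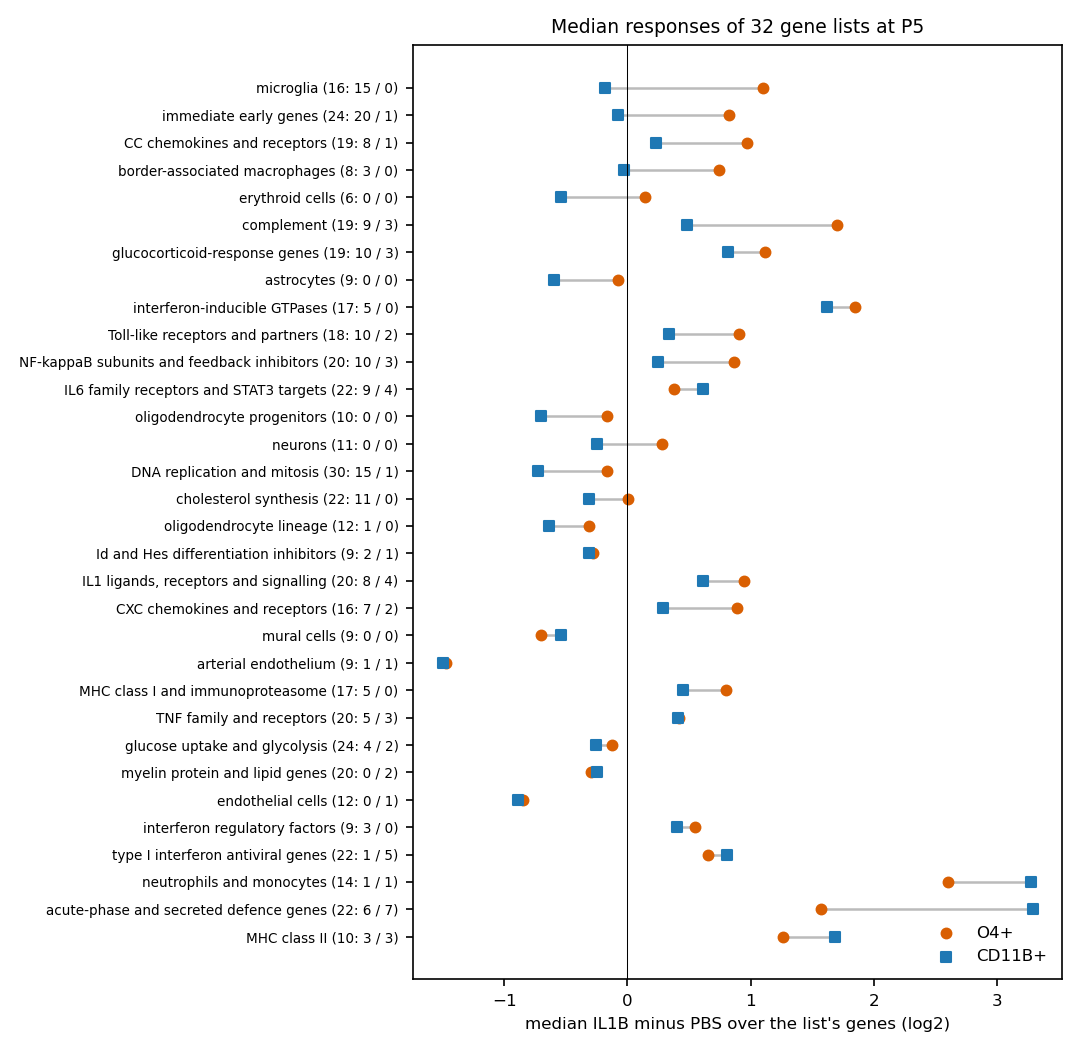
Median IL1B minus PBS difference (log2, x axis) over the genes of each of 32 lists in O4+ (circles) and CD11B+ cells (squares), sorted by the median interaction; in brackets are the genes with a probe and how many passed the interaction towards O4+ / towards CD11B+. Microglia (15 and 0 of 16) and immediate early genes (20 and 1 of 24) have median interactions of 1.31 and 0.88, and acute-phase genes have a CD11B+ median of 3.29.

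Most microglia markers and immediate early genes passed towards O4+. Of the 16 microglia genes, 12 were called higher in O4+ cells and 4 lower in CD11B+ cells, and 15 passed towards O4+ (median interaction 1.31). Trem2, a lipid receptor, gave 12.91, 13.63 and 13.83 with PBS and 14.71, 15.10 and 15.32 with IL1B in O4+ cells, and 16.53, 16.56 and 16.66 and then 16.37, 16.51 and 16.54 in CD11B+ cells. Siglech was the exception by its brightest probe, with 0.00 and −0.08, and 1 of its 3 probes passed towards O4+ (1.27). Of 24 immediate early genes, the first genes transcribed after a stimulus, 19 were called higher in O4+ and 2 in CD11B+ cells, and 20 passed towards O4+ (11 with the slide as a block). Atf3, a stress-response factor, gave 12.01, 12.44 and 12.67 with PBS and 13.40, 13.47 and 13.93 with IL1B in O4+ cells, and 15.47, 15.71 and 15.82 and then 15.27, 15.40 and 15.55 in CD11B+ cells (interaction 1.42 ± 0.14, adjusted p = 4.4e-07). Of the 24, 23 were at least 2-fold higher in CD11B+ PBS arrays. The microglia gene level given above was also higher with IL1B in O4+ cells, and its part in the rise of the immediate early genes was not tested. Without the 2 CD11B+ arrays that stand apart, 16 and 21 genes of these lists passed towards O4+.

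The falls divided unevenly between the cell types. Shared falls were endothelial in their leading genes. Gja5, an arterial connexin (probe at chr3:96857349-96857408, mm9), gave 9.94, 10.75 and 11.47 with PBS and 6.70, 7.28 and 7.56 with IL1B in O4+ cells, and 8.55, 8.86 and 9.65 and then 5.22, 5.77 and 6.51 in CD11B+ cells. It fell by 3.48 ± 0.27 and by 3.21 ± 0.27 with an interaction of −0.26 (95% interval −1.04 to 0.52). Sox18, an endothelial transcription factor, fell by 2.28 and by 2.69, and Gpr182, an endothelial receptor, by 2.18 and by 2.46. Of the endothelial cell lists, 9 of 12 endothelial genes and 7 of 9 arterial genes were called lower in each cell type. The mean of the 12 endothelial genes was 10.07 to 11.13 with PBS and 9.61 to 10.26 with IL1B on the O4+ arrays and 9.27 to 9.91 and 8.70 to 9.32 on the CD11B+ arrays, so that endothelial RNA was present in both fractions; its part in these falls was not tested. Adh1, an alcohol dehydrogenase, fell by 2.11 and by 2.68. Syt15, a synaptotagmin, fell by 2.70 and by 2.22, with an interaction of −0.48 that was −1.71 by its second probe.

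CD11B+-biased falls numbered 998 probes, of which 969 were not called in O4+ cells. Lgi2, a secreted leucine-rich repeat protein (probe at chr5:52929239-52929298, mm9), gave 9.10, 9.25 and 9.38 and then 8.71, 9.04 and 9.22 in O4+ cells. CD11B+ cells took Lgi2 from 9.36, 9.70 and 9.81 to 5.51, 5.75 and 6.17, a fall by 3.87 ± 0.10 (interaction 3.65 ± 0.15, adjusted p = 4.4e-13, and 1.28 with adjusted p = 0.018 at P10). Adamts16, a secreted protease, fell by 0.47 ± 0.10 in O4+ cells by the adjusted p alone and by 2.71 ± 0.10 in CD11B+ cells. Cmya5, a muscle protein, differed by −0.06 and −2.50 (its second probe gave an interaction of 0.71, which did not pass) and was well above background on 3 of the 6 CD11B+ IL1B arrays, Dhh, a hedgehog ligand, by −0.62 and −2.89 (5 of 6), and Duoxa1, an oxidase maturation factor, by −0.36 and −2.29 (2 of 6). The interactions of the 3 Duoxa1 probes ran from −0.14 to 1.93. Within slide 4, whose arrays also set the class, 793 of 794 measured members had the same sign (median 0.79), yet 299 of 998 passed with the slide as a block.

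Replication genes were in part members of this class. Of 30 genes of DNA replication and mitosis, 22 were called lower in CD11B+ cells and none in O4+ cells, 15 passed towards O4+ (8 with the slide as a block) and 9 were CD11B+-biased falls. Mcm6, of the replicative helicase, gave 14.01, 14.12 and 14.24 and then 14.00, 14.08 and 14.21 in O4+ cells, and 14.62, 14.72 and 14.92 and then 13.40, 13.61 and 13.83 in CD11B+ cells. The O4+ groups overlapped and the CD11B+ groups did not (interaction 1.11 ± 0.10, adjusted p = 1.5e-07). Mcm5 fell by 1.05, Mcm7 by 0.94 and Mcm3 by 0.99 in CD11B+ cells, and the G1 cyclin Ccnd3 rose there by 0.71. At P10 20 of the 30 passed towards O4+ (median interaction 0.72), among them Mki67 (0.97, adjusted p = 6.7e-05). The interaction alone does not tell whether these genes rose in O4+ cells or fell in CD11B+ cells at P10. The study reports that cell cycle genes were raised by IL1B in O4+ cells at that stage. Of 22 cholesterol synthesis genes, 11 passed towards O4+ at P5 (2 with the slide as a block) and 1 at P10, where 6 passed the other way. Sqle, the squalene epoxidase, differed by −0.11 in O4+ cells and fell by 0.96 in CD11B+ cells.

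O4+-biased falls were few. Mogat2, a monoacylglycerol acyltransferase, gave 7.03, 7.65 and 8.31 with PBS and 4.12, 4.86 and 6.45 with IL1B in O4+ cells, and 7.07, 7.79 and 8.19 and then 7.87, 8.21 and 9.57 in CD11B+ cells. The O4+ groups did not overlap and the CD11B+ groups did (interaction −3.31 ± 0.50, adjusted p = 7.3e-05). Fam101b (Rflnb), an actin regulator, fell by 1.73 ± 0.21 in O4+ cells with 0.56 ± 0.21 in CD11B+ cells. Dpp4, a peptidase well above background on 3 of 6 O4+ IL1B arrays, fell by 1.43 and Bmx, a kinase of arterial endothelium, by 1.39 in O4+ cells, where a second Bmx probe gave an interaction of −0.80 that did not pass. Id1, an inhibitor of differentiation factors, fell by 0.97 in O4+ cells with 0.36 in CD11B+ cells (interaction −1.33 ± 0.25, adjusted p = 0.00085). Of 20 myelin genes, none passed towards O4+ and 2 towards CD11B+: Mag (−0.48 and 0.53) and Mog (−0.42 and 0.56), both adhesion proteins of myelin. None of the 10 oligodendrocyte progenitor genes passed in either direction.

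The counts of the remaining lists stand beside 6.89% and 3.77% of all probes. Of 9 interferon regulatory factors 3 passed towards O4+, also with the slide as a block: Irf8, Irf5 and Irf4. Of 20 TNF family genes 5 passed towards O4+ and 3 towards CD11B+ (2 and 1 with the slide as a block). Of 24 glucose uptake and glycolysis genes 4 and 2 passed, and of 9 Id and Hes genes 2 and 1. Of 12 oligodendrocyte lineage genes 1 passed towards O4+, and of 8 border-associated macrophage genes 3 (0 and 1 with the slide as a block). None passed among 9 mural, 9 astrocyte, 11 neuron and 6 erythroid genes.

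Opposite calls were rare: 10 probes were called higher in O4+ and lower in CD11B+ cells, and 7 the reverse. Csf1, the growth factor of microglia (probe at chr3:107548521-107548580, mm9), gave 7.15, 7.81 and 8.04 with PBS and 8.38, 8.61 and 8.98 with IL1B in O4+ cells, and 11.10, 11.50 and 11.81 and, with IL1B, between 10.66 and 11.03 in CD11B+ cells. It rose by 0.93 ± 0.14 and fell by 0.71 ± 0.14 with no overlap in either (interaction 1.64 ± 0.19, adjusted p = 3.6e-06), and all 4 of its probes passed the same way, from 1.04 to 1.64. P2ry13, a purinergic receptor of microglia, rose by 0.62 and fell by 0.63, and Adamts1, a secreted protease, rose by 0.53 and fell by 0.58. Cd97 (Adgre5), an adhesion receptor of leukocytes (probe at chr8:86247320-86247379, mm9), went the other way. O4+ cells gave Cd97 11.21, 11.70 and 12.17 with PBS and 10.38, 10.69 and 11.15 with IL1B, and CD11B+ cells 13.12, 13.19 and 13.36 and then 13.91, 14.29 and 14.35. It fell by 0.97 ± 0.15 in O4+ and rose by 1.03 ± 0.15 in CD11B+ cells (interaction −2.0 ± 0.22, adjusted p = 1.5e-06).

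On the 24 P10 arrays, a separate set of samples taken after the injections had ended, part of the pattern was seen again. The interaction there passed for 3.96% of probes towards O4+ and 3.7% towards CD11B+. Of the 801 O4+-biased rises of P5, 13% passed towards O4+ and 2.62% towards CD11B+ at P10. Of the 866 CD11B+-biased rises, 14.8% passed towards CD11B+ and 0.924% towards O4+. The CD11B+-biased falls had the highest share, with 23.4% towards O4+, and the O4+-biased falls stood near the background with 4 of 79. That 23.4% was not only a fall in CD11B+ cells. The measured CD11B+-biased falls had median P10 changes of 0.21 in O4+ and −0.095 in CD11B+ cells. Of the 998, 125 were called higher and 14 lower in O4+ cells at P10, and 14 higher and 106 lower in CD11B+ cells. Over all 55681 probes these counts were 1512, 887, 939 and 746. Sizes were smaller: the median interaction of the 4 classes was 0.35, −0.32, 0.34 and −0.15 at P10, beside 1.00, −1.12, 0.85 and −1.09 at P5.

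**Figure D5:**
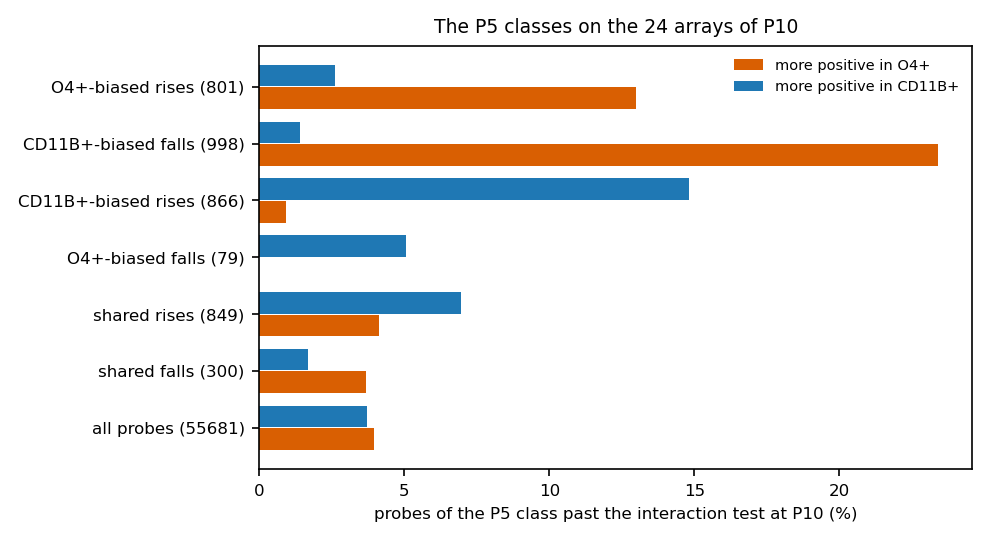
Bars give the percentage of the probes of each P5 class (number in brackets) that passed the interaction on the 24 arrays of P10, more positive in O4+ (orange) or in CD11B+ (blue), with all 55681 probes at the bottom. The CD11B+-biased falls reach 23.4% and the CD11B+-biased rises 14.8%, against 3.96% and 3.7% of all probes.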

How the data were processed

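Total RNA of each sorted fraction was labelled with Cy3 and hybridised to a 1-colour Agilent array. The authors deposited, per array, the background-subtracted intensity of each spot from Agilent Feature Extraction 10.7.3.1, with flags, and a table of processed values (a signal ratio scale whose log2 matched the scaled scanner values within 1.9e-05). Control spots were left out, spots of a probe were averaged (59305 spots, 55681 probes), and the log2 intensity of the 24 P5 arrays was quantile-normalized; the study's methods name quantile normalization, and doing it over these 24 arrays together was chosen here. limma 3.58.1 in R 4.3.3 fitted the 4 groups, with Benjamini-Hochberg adjustment over all probes. A probe was measured if well above background on all 6 arrays of at least 1 group of each cell type. Named genes were the 5 of each class with the largest size, without overlap of IL1B and PBS arrays where the class was called, the opposed genes, and up to 4 per list with the largest interaction, plus members needed to say what a list is. Array number limits the precision. The classes and gene lists were chosen with earlier results of these data known. The fit was checked on simulated data. Alternatives covered scaling, background, filters, blocks and left-out arrays. Probe positions are those of the array files (mm9). The list genes H2-L, H2-T22, C4a and Ly6c2 had no probe. Some items are not reported here.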

Additional observations from a re-analysis of the deposited data

Results flagged for a closer look

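Of 144 groups of 6 arrays, 15 had 1 array far from the others (Dixon's ratio, which chance exceeds in about 1 of 20 groups), and CD11B+ IL1B replicate 3 was that array in 7 of them. In it Lcn2 read 14.1, Stfa3 15.2, Ly6g 8.47, Cd97 13.9, Bmx 8.78 and P2ry13 13.9 (log2 signal), and the mean of the neutrophil and monocyte genes read 12.5. CD11B+ PBS replicate 5 read 6.94 for Upp1, above the rest of its group. CD11B+ PBS replicate 2 read 15.9 for the mean of the microglia genes, and CD11B+ IL1B replicate 1 read 11 for Csf1. Among O4+ arrays, PBS replicate 2 read 6.53 for Lcn2, PBS replicate 5 read 7.37 for Cmya5, PBS replicate 3 read 7.15 for Csf1 and 10.3 for P2ry13, and IL1B replicate 4 read 6.6 for Ly6g.

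The IL1B response differed between the cell types by the interaction test for 3835 probes towards O4+ and 2098 towards CD11B+, and for 23 of the named genes. Towards O4+ these were Lgi2 (3.65), S100a9 (3.03), Cmya5 (2.44), Dhh (2.27), Adamts16 (2.24), Lcn2 (2.08), Cxcl10 (2.04), Duoxa1 (1.93), Niacr1 (1.90), Csf1 (1.64), Serpina3f (1.35), P2ry13 (1.25) and Adamts1 (1.11), as log2 differences of the responses. Towards CD11B+ they were Chi3l7 (−4.48), Ly6g (−3.93), Upp1 (−3.76), S100a6 (−3.63), Anxa1 (−3.39), Mogat2 (−3.31), Fam101b (−2.28), Dpp4 (−2.0), Cd97 (−2.0) and Bmx (−1.71).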

How the results depend on the processing

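Over the named genes and alternatives, 1189 values kept their side of the threshold, 20 no longer passed, and none of the interactions that had passed changed sign. Of the 8 named shared genes whose interaction had not passed, none passed in an alternative and 7 changed sign in at least 1, among them Stfa3 (−1.12 to 1.53) and Gja5 (−0.71 to 0.60), so they have no settled direction. Those lost with the slide as a block were Serpina3f, Lcn2, S100a9, Cxcl10 and Dhh. Dhh was also lost with normexp background (0.80), S100a9 with the deposited matrix (2.51), and Serpina3f in 4 settings besides the block. With the 8 arrays of slide 4 alone, Serpina3f, Dhh, Cxcl10, Niacr1, Mogat2, Fam101b, Dpp4, Cmya5, Duoxa1 and Csf1 no longer passed. The methods' t-test, on the same values, gave 4043 and 2208 interactions. Scaling each array to its 75th percentile put the median interaction of all probes at −0.14 and the median CD11B+ change at 0.11, and gave 125 O4+-biased falls. The deposited matrix gave 2371 and 1024 interactions. Normexp background gave 1106 rises and 254 falls in O4+, 1450 and 1200 in CD11B+ cells, 507 shared rises, 501 O4+-biased rises, 145 shared falls, 25 O4+-biased falls and 460 CD11B+-biased falls. Restricting to measured probes gave 398 O4+ falls, 1631 CD11B+ rises, 551 CD11B+-biased rises and 44 O4+-biased falls. Without a fold threshold there were 3259 and 3845 calls in O4+ cells, 5896 and 9764 in CD11B+ cells, 1818 and 2614 shared rises and falls, 1262 and 403 O4+-biased and 1727 and 2684 CD11B+-biased rises and falls, since more probes then count as called.

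The slide as a fixed block gave 1434 and 784 interactions, 340 O4+ falls, 2217 CD11B+ falls, 497 CD11B+-biased rises, 133 shared falls, 22 O4+-biased falls and 323 CD11B+-biased falls. The slide 4 arrays alone, an alternative chosen after seeing the data, left 8 samples and gave 872 and 474 interactions, 294 O4+ falls, 1383 CD11B+ rises, 1625 CD11B+ falls, 387 shared rises, 436 and 360 biased rises in O4+ and CD11B+, 83 shared falls and 380 CD11B+-biased falls; 142 of the 801 O4+-biased rises were among them. Leaving out both CD11B+ arrays that stand apart, also chosen afterwards, gave 4485 and 2906 interactions and kept 764 of the 801 and 793 of the 866 biased rises. Of the 998 CD11B+-biased falls, 778 were kept without those arrays. With 75th percentile scaling 772 of these falls were kept, and with the slide 4 arrays alone 42. The cause of these shifts was not tested.

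Leaving out 1 array gave 3435 to 4034 and 1846 to 2585 interactions, 1735 to 1953 and 501 to 697 O4+ calls, 2405 to 2794 and 3270 to 3821 CD11B+ calls, 800 to 883 shared rises, 702 to 862 O4+-biased rises, 813 to 1014 CD11B+-biased rises, 247 to 331 shared falls, 67 to 98 O4+-biased falls and 879 to 1203 CD11B+-biased falls.

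The groups share replicate numbers, and both fractions were sorted from the same tissue, but the labels do not say that a number marks a shared pool. The deviations of same-numbered arrays correlated above 0.1 in 7 of 12 pairs (−0.03 to 0.32; 5 of 6 with PBS and 2 of 6 with IL1B), and 7 of 12 O4+ arrays correlated best with their own number. With the replicate number as a block there were 3783 and 2105 interactions, and with the pool as a block 3315 and 1861; neither block moved a count by over 1.5 times. Signal over background limits the dim genes: a probe not well above background in a group has only a bound there, and 6 arrays per group limit the rest.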
